A study of Mus musculus with 18 samples.

Results

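The genes that make, hold and receive transforming growth factor beta (TGF-beta) were followed in mouse hearts: the ligands Tgfb1, Tgfb2 and Tgfb3, the receptors Tgfbr1 and Tgfbr2, the latent TGF-beta binding proteins Ltbp1, Ltbp2, Ltbp3 and Ltbp4, and the inhibitory Smad gene Smad7. They were picked by symbol, with earlier results of these data known and no threshold on a measured value, and are 10 of the 54532 genes in the count table. All 10 were among the 17876 genes that passed the filter on low counts, with between 16262 (Smad7) and 412812 (Ltbp4) counts over the 18 libraries.

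TGF-beta is a secreted growth factor that drives fibroblasts to make and crosslink matrix, and in the heart it is best known for its part in scarring. Each ligand leaves the cell as a latent complex with its own propeptide. A latent binding protein ties that complex to microfibrils and fibronectin until integrins, thrombospondin or proteases free it. The free ligand joins the type II receptor with the type I receptor, which phosphorylates Smad2 and Smad3. Smad7 is induced by the pathway and blocks it at the type I receptor.

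Lmna encodes lamin A and lamin C of the nuclear lamina. Per the design text, its knockdown served to model dilated cardiomyopathy. The question was what happens when either lamin is then raised by rAAV9, an adeno-associated virus vector. RNA came from the apex of hearts whose genotype is labelled WT in every group. Polyadenylated RNA was sequenced in 3 libraries for each of 6 groups. The 3 groups of batch LC were labelled control, Lmna shRNA, and Lmna shRNA plus lamin C. Batch LA had a control group and an shRNA group of its own, and its remaining group got lamin A on top of the shRNA. The labels do not give age, sex, what the controls received, or the promoter and dose of the vectors. They do not say either that the libraries of a group are separate animals. The p-values therefore measure the spread between these libraries. Each lamin stood in 1 batch only, so lamin and batch cannot be told apart.

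Lmna, the target, did not pass the test as lower in the libraries labelled shRNA: the log2 fold change against control was 0.06 ± 0.08 (SE, edgeR adjusted p = 0.578) in batch LC and 0.11 ± 0.08 (edgeR adjusted p = 0.258) in batch LA. Groups are therefore named as labelled, and a direction written for shRNA belongs to the libraries that carry this label. Lmna CPM (the counts of a gene relative to a library size scaled by TMM, the trimmed mean of M values) averaged 1252 ± 165 (SD, n = 3) in the lamin C libraries and 531 ± 27.5 in the lamin A libraries, against 112 to 137 in the libraries of the other groups. Libraries held 31418657 to 41259968 counts, so that 3 counts correspond to 0.0622 to 0.108 CPM. Mitochondrially encoded genes took 25.4% and 26.7% of counts in the 2 control groups, 14.4% in both shRNA groups, 24% with lamin C and 21.3% with lamin A.

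The start-site windows of the genes with the widest range of responses are shown so that the genes can be told apart by sequence as well as by value: Ltbp2 and Tgfb2 rose the most with shRNA, Ltbp3 rose together with them, and Ltbp1 rose in neither batch with TMM scaling. Each window runs from 250 bases before to 50 bases after a transcription start in RefSeq (build GRCm38.p6, which has the coordinates of mm10), is read 5′ to 3′ on the strand of the gene, and has matches to the motifs named below in capitals. The windows are chr12:84876442-84876741 (minus strand) for Ltbp2, chr1:186705940-186706239 (minus strand) for Tgfb2, chr19:5740650-5740949 (plus strand) for Ltbp3 and chr17:75005279-75005578 (plus strand) for Ltbp1.
Ltbp2: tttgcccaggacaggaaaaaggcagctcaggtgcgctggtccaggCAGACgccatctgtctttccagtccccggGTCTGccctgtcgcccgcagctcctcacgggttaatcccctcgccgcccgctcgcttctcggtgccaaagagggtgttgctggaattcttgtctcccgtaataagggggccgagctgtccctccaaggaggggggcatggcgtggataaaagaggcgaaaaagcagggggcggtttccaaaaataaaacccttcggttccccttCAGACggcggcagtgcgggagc
Tgfb2: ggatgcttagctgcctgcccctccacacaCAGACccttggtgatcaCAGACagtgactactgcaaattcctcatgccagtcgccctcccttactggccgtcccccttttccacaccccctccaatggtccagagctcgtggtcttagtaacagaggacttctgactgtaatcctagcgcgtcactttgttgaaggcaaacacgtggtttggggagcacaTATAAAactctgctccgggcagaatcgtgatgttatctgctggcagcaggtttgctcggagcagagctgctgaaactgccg
Ltbp3: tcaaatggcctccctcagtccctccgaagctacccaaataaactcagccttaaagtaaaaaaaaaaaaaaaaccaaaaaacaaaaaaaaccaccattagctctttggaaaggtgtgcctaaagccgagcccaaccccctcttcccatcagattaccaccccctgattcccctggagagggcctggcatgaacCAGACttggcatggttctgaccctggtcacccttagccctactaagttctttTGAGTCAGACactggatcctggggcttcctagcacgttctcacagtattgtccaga
Ltbp1: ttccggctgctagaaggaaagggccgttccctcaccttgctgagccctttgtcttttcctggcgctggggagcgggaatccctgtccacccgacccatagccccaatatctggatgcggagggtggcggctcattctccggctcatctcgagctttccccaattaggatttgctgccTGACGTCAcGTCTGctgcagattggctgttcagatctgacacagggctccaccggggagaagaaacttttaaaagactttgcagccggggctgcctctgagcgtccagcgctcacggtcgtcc
Windows of 8 of the 10 genes were searched, and none is given here for Tgfb3 or Smad7. The letters CAGAC, the core of the CAGA box to which Smad3 and Smad4 can bind, were searched on both strands and were found 3 times for Ltbp2, 2 times each for Tgfb2 and Ltbp3, and 1 time each for Ltbp1 and Tgfbr2, with no match for Tgfb1, Tgfbr1 or Ltbp4. Of all 32851 windows of this length, 49.6% held at least 1 such match, so the match is a common one. The AP-1 motif TGANTCA (7.81% of windows) stood only in the Ltbp3 window among the 8, where its last bases are also the first bases of a CAGAC match. The cyclic AMP response element TGACGTCA (1.79% of windows) stood only in the Ltbp1 window, and TATAAA (13.6%) only in the Tgfb2 window. The palindrome GTCTAGAC (0.213%) and the TEAD motif GGAATG (14.7%) matched in none of the 8. Tgfbr1 and Ltbp1 had 2 windows each and Ltbp4 had 3. Only the window nearest the gene start in the count table was searched, so other start sites of these genes are not covered. A match describes these letters and shows no binding.

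In the libraries labelled shRNA, 9 of the 10 genes rose against control in batch LC and the same 9 rose in batch LA, while Ltbp1 rose in neither batch with TMM scaling but was called higher in batch LA when library totals were the only scaling. The median log2 fold change of the 10 genes was 1.22 in batch LC and 1.18 in batch LA, against 0.05 for all genes tested in each batch. Over all genes, edgeR's quasi-likelihood test called 62.9% in batch LC (33.3% higher and 29.6% lower) and 61.4% in batch LA (32.4% higher and 29% lower) at a Benjamini-Hochberg adjusted p under 0.05. A call by itself was therefore common in these hearts. Of the 10 genes, 10 had control and shRNA libraries that did not overlap in CPM, in either batch. The share of all genes without such overlap is not given here, so this count does not set the 10 genes apart. No gene of the 10 differed in its shRNA response between the batches by edgeR or by DESeq2. Only Tgfbr1 had an unadjusted p under 0.05 there, with a difference of 0.29 ± 0.12 on the log2 scale (95% interval 0.03 to 0.55, edgeR unadjusted p = 0.0258, adjusted p = 0.752), and over all genes 0.00559% were called. That is 1 gene higher and 0 lower, which became 25 higher and 22 lower without the third control of batch LC, with none of the 10 genes among them.

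**Figure D1:**
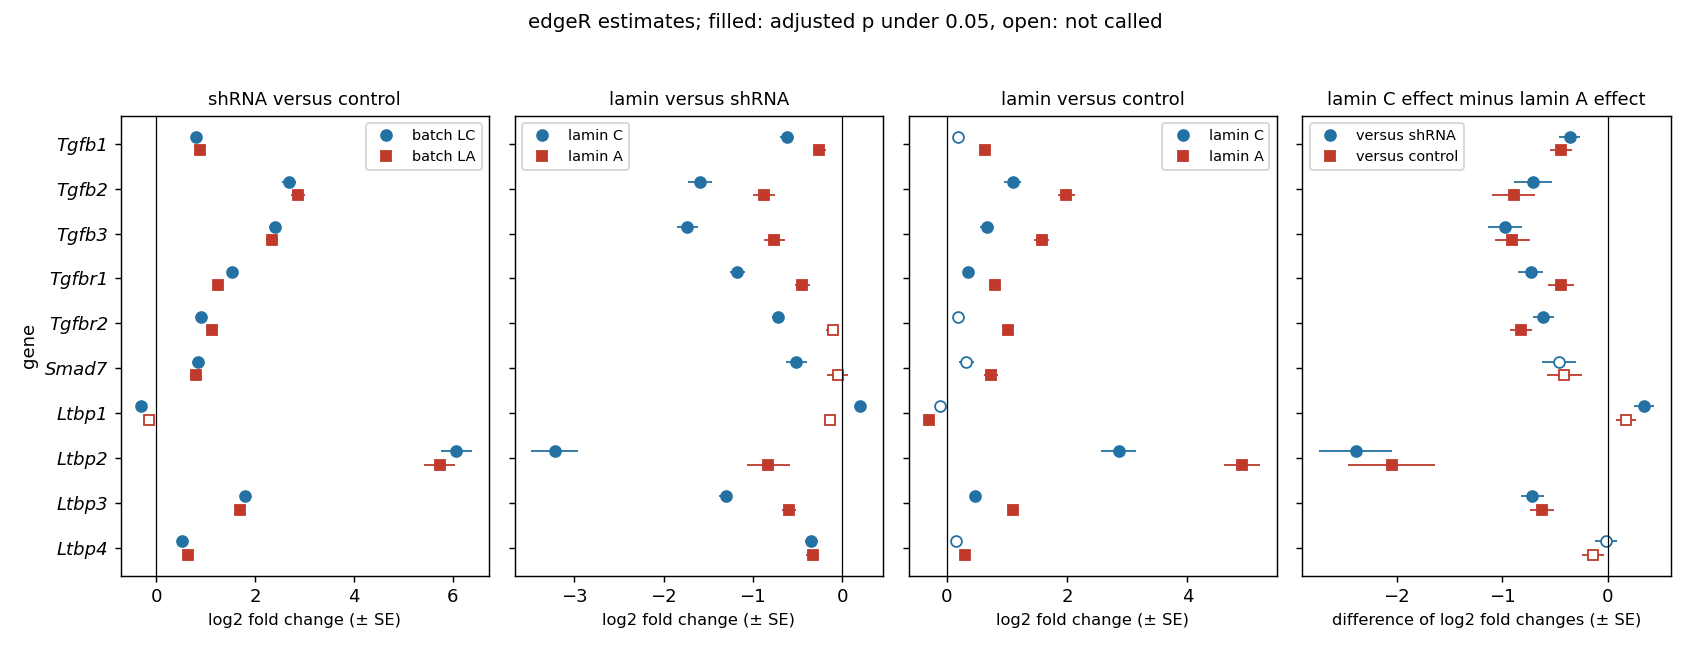
Points give edgeR log2 fold changes and bars their SE for the 10 genes (vertical axis): shRNA against control in both batches, each lamin against the shRNA and the control libraries of its batch, and, at right, the lamin C effect minus the lamin A effect; filled points were called at an adjusted p under 0.05. Ltbp2 stands far to the right with shRNA (6.07 in batch LC and 5.73 in batch LA), Ltbp1 lies left of zero with TMM scaling (right of it with library totals), and the lamin C points lie further from the shRNA level than the lamin A points for most genes.

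The ligands rose by unequal amounts, Tgfb2 and Tgfb3 by several-fold and Tgfb1 by less than 2-fold. Tgfb2 (ENSMUSG00000039239, chr1:186622792-186705989, minus strand, coordinates of the deposited table, mm10), the ligand required for heart valve and septum formation, had 10.8, 9.37 and 11 CPM in the controls of batch LC. It had 64.7, 61.4 and 75 CPM with shRNA and 26, 17.5 and 23.5 CPM with lamin C. In batch LA it had 11.5, 9.8 and 8.98 CPM in controls, 80.8, 68.2 and 72.2 CPM with shRNA and 40.2, 33.5 and 46.7 CPM with lamin A. In both batches the shRNA libraries were the highest, the controls the lowest and the lamin libraries between them, with no overlap. The log2 fold change with shRNA was 2.69 ± 0.14 (SE; 6.44-fold, edgeR adjusted p = 6.24e-12) in batch LC and 2.87 ± 0.14 (7.3-fold, edgeR adjusted p = 3.51e-12) in batch LA.

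Tgfb3 (ENSMUSG00000021253, chr12:86056745-86079041, minus strand), the ligand known for palate fusion, had 21.7, 22.5 and 22.5 CPM in the controls of batch LC. It had 116, 128 and 109 CPM with shRNA and 40.4, 27.6 and 38.5 CPM with lamin C. In batch LA its values were 23.2, 25.7 and 22.2 CPM in controls, 123, 115 and 121 CPM with shRNA and 69.5, 60.7 and 82.2 CPM with lamin A. No library of one group reached those of another within its batch, and 1 lamin C library, at 27.6 CPM, lay nearest to the controls. With shRNA it rose 5.3-fold (log2 2.41 ± 0.12, edgeR adjusted p = 3.24e-12) in batch LC and 5.05-fold (log2 2.34 ± 0.12, edgeR adjusted p = 5.43e-12) in batch LA. Tgfb3 shares its locus with Ttll5 on the other strand, which had 7894 counts against 45589 for Tgfb3 over all libraries and log2 fold changes of -0.02 and -0.01 with shRNA. The strand setting of the counting is not stated.

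Tgfb1 (ENSMUSG00000002603, chr7:25687002-25705077, plus strand), the isoform most studied in fibrosis, had 24, 28.4 and 28.9 CPM in the controls of batch LC. It had 44.6, 47.5 and 50.4 CPM with shRNA and 31.7, 28.6 and 32.5 CPM with lamin C. In batch LA it had 31, 29.5 and 28.3 CPM in controls, 53.7, 56.1 and 55.1 CPM with shRNA and 42.4, 48 and 47.8 CPM with lamin A. The lamin C libraries overlapped the controls, whereas the lamin A libraries stood above them. The rise with shRNA was 1.75-fold (log2 0.81 ± 0.07, edgeR adjusted p = 1.38e-08) in batch LC and 1.86-fold (log2 0.89 ± 0.07, edgeR adjusted p = 3.41e-09) in batch LA.

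**Figure D2:**
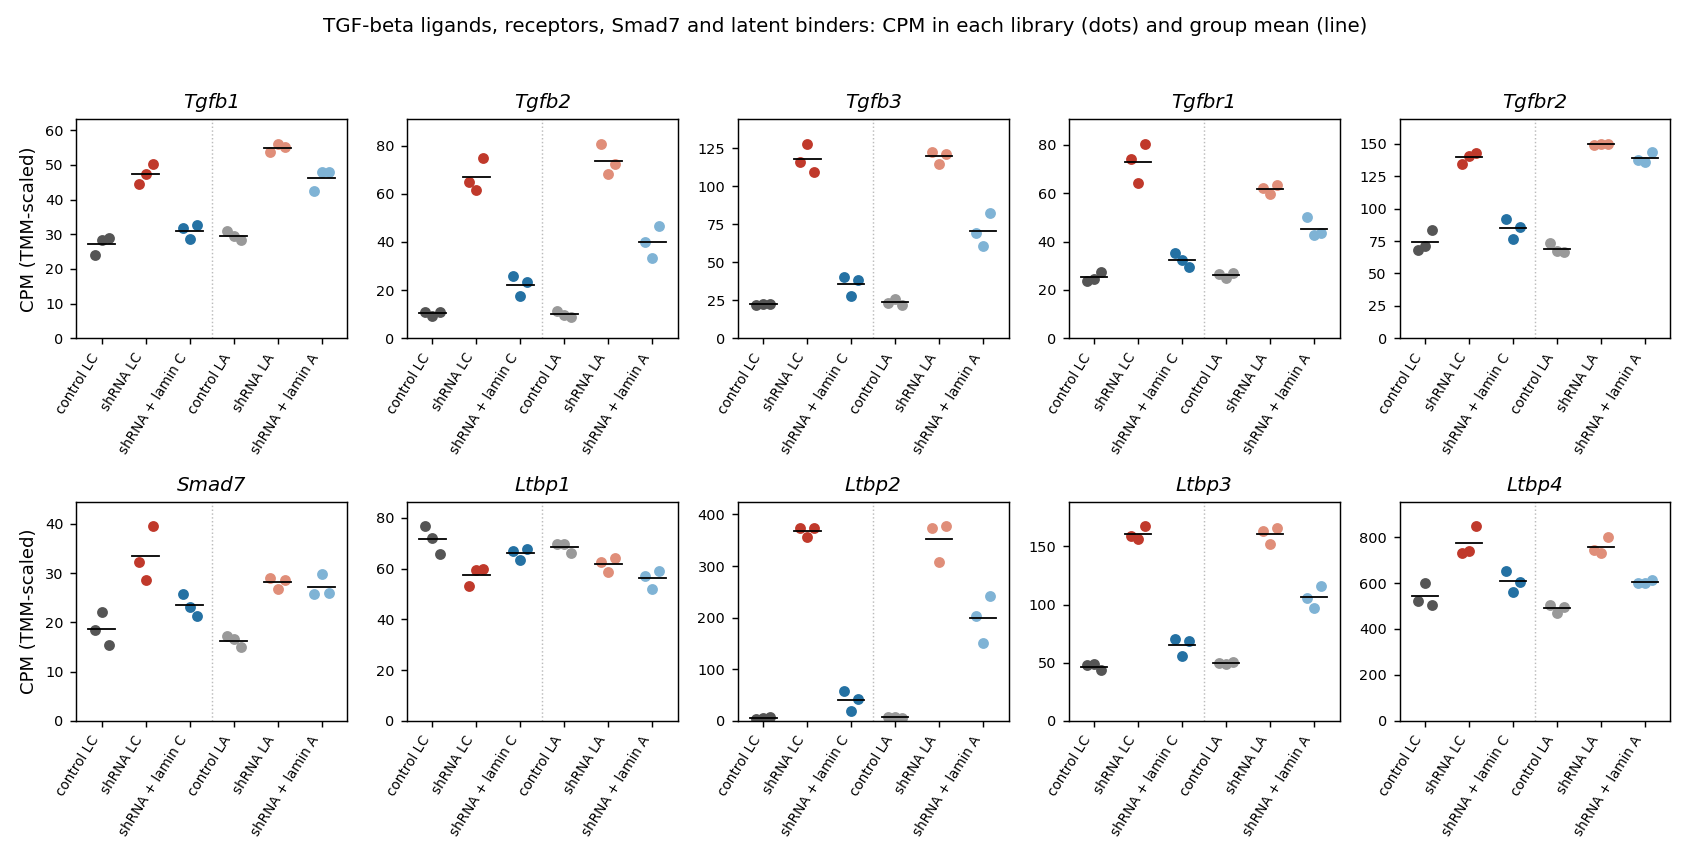
Each panel shows 1 gene, with CPM (TMM-scaled, linear axis from 0) on the vertical axis, the 6 groups on the horizontal axis, a dot for each library and a line at the group mean. The shRNA means stand highest within their batch in 9 panels, for example at 61.4 to 75 CPM for Tgfb2 in batch LC against 9.37 to 11 CPM in its controls, and Ltbp1 is the panel without such a rise on this scale.

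Both receptors rose, Tgfbr1 by more than Tgfbr2 in batch LC. Tgfbr1 (ENSMUSG00000007613, chr4:47353222-47414931, plus strand), which encodes the type I receptor kinase that phosphorylates Smad2 and Smad3, had 23.9, 24.7 and 27.2 CPM in the controls of batch LC. It had 74.3, 64.1 and 80.5 CPM with shRNA and 35.1, 32.2 and 29.6 CPM with lamin C. In batch LA it had 26.7, 24.8 and 26.9 CPM in controls, 62.2, 59.6 and 63.3 CPM with shRNA and 50.2, 42.5 and 43.4 CPM with lamin A. The shRNA libraries were the highest in both batches and the lamin libraries of neither batch reached down to their controls. Its log2 fold change with shRNA was 1.53 ± 0.09 (edgeR adjusted p = 1.27e-11) in batch LC and 1.24 ± 0.09 (edgeR adjusted p = 2.38e-10) in batch LA.

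Tgfbr2 (ENSMUSG00000032440, chr9:116084293-116175360, minus strand), the type II receptor that binds the ligand first, had 68.3, 71.2 and 83.3 CPM in the controls of batch LC. It had 135, 141 and 143 CPM with shRNA and 91.9, 76.4 and 86.2 CPM with lamin C. In batch LA its values were 73.2, 67.4 and 66.4 CPM in controls, 149, 150 and 150 CPM with shRNA and 138, 136 and 144 CPM with lamin A. With lamin C it overlapped the controls, and with lamin A it stayed just below the shRNA libraries, without overlap. Its log2 fold change with shRNA was 0.91 ± 0.07 (edgeR adjusted p = 1.54e-09) in batch LC and 1.12 ± 0.07 (edgeR adjusted p = 9.69e-11) in batch LA. The ratio of Tgfbr1 to Tgfbr2 in FPKM (counts per length of gene and size of library, as deposited) went from 0.428 in controls to 0.656 with shRNA in batch LC, with no overlap. In batch LA it was 0.475 in controls and 0.516 with shRNA, and the groups overlapped. An exact two-sided permutation test of 3 against 3 libraries cannot give a p under 0.1, and gave p = 0.1 in batch LC and p = 0.2 in batch LA.

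Smad7 (ENSMUSG00000025880, chr18:75367529-75395935, plus strand), the feedback inhibitor, had 18.5, 22.1 and 15.5 CPM in the controls of batch LC. It had 32.2, 28.7 and 39.5 CPM with shRNA and 25.8, 23.2 and 21.4 CPM with lamin C. In batch LA it had 17.2, 16.6 and 15 CPM in controls, 29, 26.8 and 28.6 CPM with shRNA and 25.7, 29.8 and 25.9 CPM with lamin A. The lamin C libraries overlapped their controls and the lamin A libraries overlapped their shRNA libraries. With shRNA it rose 1.79-fold (log2 0.84 ± 0.12, edgeR adjusted p = 4.28e-06) in batch LC and 1.73-fold (log2 0.79 ± 0.12, edgeR adjusted p = 1.10e-05) in batch LA.

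The latent binding proteins covered the widest range of responses. Ltbp2 (ENSMUSG00000002020, chr12:84783212-84876532, minus strand), an elastic fibre protein of the family that is not known to hold latent TGF-beta, had 3.99, 5.79 and 6.66 CPM in the controls of batch LC. It had 373, 357 and 374 CPM with shRNA and 57.8, 18.9 and 42.2 CPM with lamin C. In batch LA it had 6.78, 7.22 and 5.88 CPM in controls, 374, 307 and 377 CPM with shRNA and 203, 151 and 242 CPM with lamin A. The lowest shRNA library, at 307 CPM, stood far above the highest control, at 7.22 CPM, and the lamin C libraries were the most spread out of the 6 groups relative to their mean. The rise with shRNA was 67.4-fold (log2 6.07 ± 0.32, edgeR adjusted p = 4.99e-12) in batch LC and 53.1-fold (log2 5.73 ± 0.31, edgeR adjusted p = 9.16e-12) in batch LA.

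Ltbp3 (ENSMUSG00000024940, chr19:5740904-5758532, plus strand), which is secreted in complex with TGF-beta and is known for its part in bone, tooth and aorta, had 47.9, 48.5 and 43.8 CPM in the controls of batch LC. It had 159, 156 and 167 CPM with shRNA and 70.2, 56.2 and 68.7 CPM with lamin C. In batch LA its values were 49.9, 48.5 and 50.7 CPM in controls, 163, 152 and 166 CPM with shRNA and 106, 97.3 and 116 CPM with lamin A. The order within each batch was that of Tgfb2 and Tgfb3, with no overlap. It rose 3.44-fold (log2 1.78 ± 0.08, edgeR adjusted p = 9.38e-13) in batch LC and 3.23-fold (log2 1.69 ± 0.08, edgeR adjusted p = 1.76e-12) in batch LA.

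Ltbp4 (ENSMUSG00000040488, chr7:27305136-27337692, minus strand), which binds mainly the product of Tgfb1 and supports elastic fibre assembly, had 523, 602 and 503 CPM in the controls of batch LC. It had 729, 740 and 848 CPM with shRNA and 654, 563 and 604 CPM with lamin C. In batch LA it had 505, 468 and 496 CPM in controls, 742, 730 and 801 CPM with shRNA and 598, 601 and 613 CPM with lamin A. The shRNA libraries stood above the controls without overlap, by 1.42-fold (log2 0.51 ± 0.07, edgeR adjusted p = 6.05e-06) in batch LC and 1.55-fold (log2 0.63 ± 0.07, edgeR adjusted p = 4.09e-07) in batch LA.

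Ltbp1 (ENSMUSG00000001870, chr17:75005568-75392512, plus strand), the founding member and the one that targets latent TGF-beta to fibrillin and fibronectin, had 76.7, 72.1 and 65.6 CPM in the controls of batch LC. It had 53.1, 59.3 and 59.9 CPM with shRNA and 66.9, 63.2 and 67.7 CPM with lamin C. In batch LA it had 69.6, 69.8 and 66 CPM in controls, 62.6, 58.6 and 64.1 CPM with shRNA and 57.1, 52 and 59.2 CPM with lamin A. The shRNA libraries lay below the controls in both batches without overlap. With TMM scaling the log2 fold change was -0.32 ± 0.07 (edgeR adjusted p = 4.10e-04, called lower) in batch LC and -0.15 ± 0.07 (edgeR adjusted p = 0.0628, not called) in batch LA, but with library totals as the only scaling it was 0.11 (adjusted p = 0.172) and 0.29 (adjusted p = 0.00119). That scaling moved the median of all genes to 0.47 in batch LC and 0.48 in batch LA, so Ltbp1 lay below the median gene under either scaling. The sign of its change against control depended on the scaling, and that of the other 9 genes with shRNA did not.

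Levels can be compared between genes only per length, so the deposited FPKM values were used for this. In the controls of batch LC, Ltbp4 was highest at 82.2 ± 7.84 FPKM (mean ± SD, n = 3), followed by Tgfbr2 at 8.88 ± 0.954 and Ltbp3 at 8.82 ± 0.478, whose libraries overlapped. Ltbp1 at 6.68 ± 0.523 and Tgfb3 at 6.44 ± 0.139 FPKM also overlapped each other. Tgfb1 at 5.26 ± 0.521, Smad7 at 4.04 ± 0.713 and Tgfbr1 at 3.79 ± 0.263 FPKM each overlapped the next, Tgfb2 stood below them at 1.76 ± 0.154 and Ltbp2 was lowest at 0.655 ± 0.163 FPKM. With shRNA, Ltbp2 moved from the last to the second place in batch LC, at 43.8 ± 0.968 FPKM after Ltbp4 at 116 ± 9.4, and Ltbp1 became the lowest at 5.33 ± 0.346 FPKM. Tgfb3 at 33.9 ± 2.88 and Ltbp3 at 30.2 ± 0.979 FPKM came next and nearly touched. Tgfb2 at 11.3 ± 1.14 and Tgfbr1 at 10.9 ± 1.19 overlapped in FPKM, as did Tgfbr1 and Tgfb1 at 9.17 ± 0.534.

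The make-up of each family changed accordingly. The summed FPKM of the ligands went from 13.5 in controls to 54.4 with shRNA in batch LC and from 14.3 to 57.4 in batch LA. The share of Tgfb1 in that sum was 39.0% in controls and 16.9% with shRNA in batch LC, and 40.2% and 18.5% in batch LA. Tgfb3 made up 47.9% of the ligand sum in the controls of both batches and 62.4% and 60.0% with shRNA, while Tgfb2 went from 13.1% to 20.8% and from 11.9% to 21.5%. Among the latent binders, Ltbp4 made up 83.5% of the summed FPKM in the controls of batch LC and 59.4% with shRNA, and Ltbp2 went from 0.670% to 22.4%. In batch LA, Ltbp4 went from 81.7% to 59.5% and Ltbp2 from 0.875% to 21.8%. The ratio of the ligand sum to the sum of Ltbp1, Ltbp3 and Ltbp4, which can bind latent TGF-beta, was 0.138 in controls and 0.359 with shRNA in batch LC and 0.159 and 0.384 in batch LA. None of these control and shRNA values overlapped between libraries, and each exact permutation test gave p = 0.1, the smallest that 3 against 3 libraries allow.

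**Figure D3:**
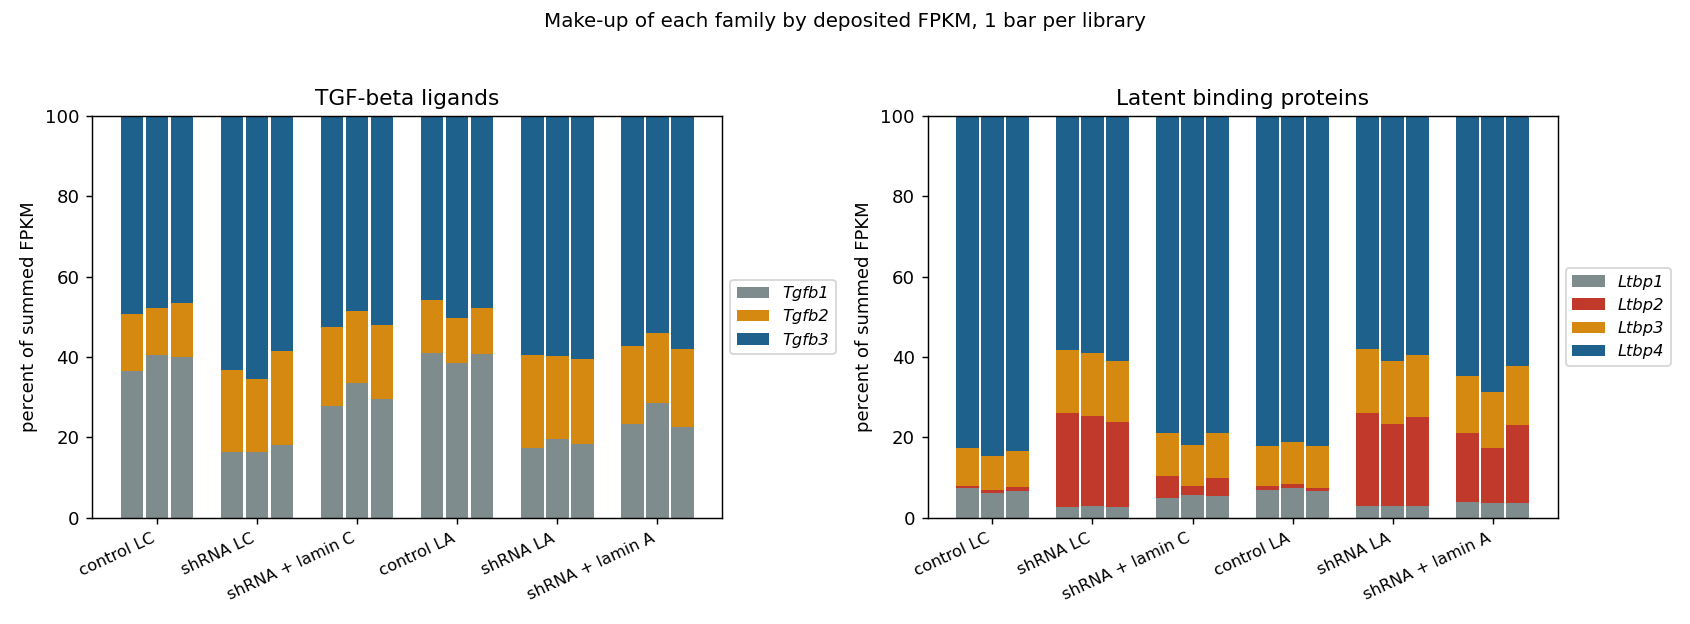
Stacked bars give the percent of the summed deposited FPKM of the ligands (left) and the latent binders (right) taken by each gene, with 1 bar for each library and 3 bars for each group. The Tgfb1 part narrows from 39.0% to 16.9% with shRNA in batch LC, and the Ltbp2 part is hardly visible in controls and takes 22.4% with shRNA.

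With lamin C all 9 genes that had risen lay closer to control than with shRNA alone, and for 7 of them the shift was larger than with lamin A. That difference between the lamins was called for 18.7% of all genes (8.84% higher and 9.9% lower). Against the shRNA libraries of batch LC, the lamin C libraries were lower for 9 genes and higher for Ltbp1, where edgeR called 54.1% of all genes (25.7% higher and 28.4% lower), with a median log2 fold change of -0.95 over the 10 genes against -0.04 over all genes. Against the shRNA libraries of batch LA, the lamin A libraries were lower for 7 genes, where edgeR called 29.8% of all genes (16.1% higher and 13.7% lower), with medians of -0.39 and -0.003. Tgfbr2, Ltbp1 and Smad7 were not called there, at -0.11 ± 0.07, -0.14 ± 0.07 and -0.05 ± 0.12 on the log2 scale. With library totals as the only scaling, Ltbp1 changed direction with lamin C (-0.11), and Tgfbr2 (-0.31) and Ltbp1 (-0.34) were called lower with lamin A.

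The ligands fell with either lamin. For Tgfb2 the log2 fold change against shRNA was -1.59 ± 0.13 with lamin C (edgeR adjusted p = 6.26e-09) and -0.88 ± 0.13 with lamin A (edgeR adjusted p = 3.29e-05). For Tgfb3 it was -1.73 ± 0.12 (edgeR adjusted p = 4.29e-10) and -0.76 ± 0.11 (edgeR adjusted p = 4.36e-05). Tgfb1 changed least, by -0.62 ± 0.07 (edgeR adjusted p = 7.69e-07) and -0.25 ± 0.07 (edgeR adjusted p = 0.0115), and without the first lamin A library its change was -0.19 (adjusted p = 0.0727), no longer called. The share of Tgfb1 in the ligand sum was 30.3% with lamin C and 24.9% with lamin A, between the shares in control and shRNA libraries.

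Ltbp2 fell the most of the 10 genes with lamin C, by 9.3-fold (log2 -3.22 ± 0.26, edgeR adjusted p = 5.39e-09). With lamin A it fell 1.78-fold (log2 -0.83 ± 0.24, edgeR adjusted p = 0.0132), and without the second lamin A library, which had 151 CPM, the change was -0.66 (adjusted p = 0.0794), no longer called. The second lamin C library was likewise the lowest of its group for Tgfb1, Tgfb2, Tgfb3, Tgfbr2, Ltbp1, Ltbp2, Ltbp3 and Ltbp4. Ltbp3 changed by -1.31 ± 0.08 with lamin C and -0.59 ± 0.08 with lamin A, and Ltbp4 by -0.35 ± 0.07 and -0.33 ± 0.07, all called lower. The call of Ltbp1 as higher with lamin C (0.20 ± 0.07, edgeR adjusted p = 0.0166) was lost without the first shRNA library (0.15, adjusted p = 0.0984) and without the third lamin C library (0.18, adjusted p = 0.0574).

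Among the receptors, Tgfbr1 fell with lamin C (-1.18 ± 0.08, edgeR adjusted p = 9.03e-10) and with lamin A (-0.44 ± 0.08, edgeR adjusted p = 3.92e-04). Tgfbr2 fell with lamin C (-0.72 ± 0.07, edgeR adjusted p = 7.32e-08). Smad7 fell with lamin C as well (-0.51 ± 0.12, edgeR adjusted p = 9.57e-04).

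Compared with control, 5 of the 10 genes stayed higher with lamin C and 9 with lamin A. Over all genes, edgeR called 15% with lamin C (8.87% higher and 6.18% lower) and 46.2% with lamin A (24.1% higher and 22.1% lower). The lamin C calls, 1585 higher and 1105 lower, went to 1066 and 441 without the first lamin C library, to 1192 and 560 without the third, and to 2879 and 293 with library totals as the only scaling. The 5 genes that stayed higher with lamin C were Ltbp2 (2.86 ± 0.30), Tgfb2 (1.10 ± 0.14), Tgfb3 (0.67 ± 0.12), Ltbp3 (0.48 ± 0.08) and Tgfbr1 (0.35 ± 0.09) on the log2 scale, and Tgfbr1 lost its call without the first control (adjusted p = 0.0506) or the first lamin C library (adjusted p = 0.0609). Tgfb1 (0.19 ± 0.08), Tgfbr2 (0.19 ± 0.07), Ltbp4 (0.16 ± 0.07), Smad7 (0.33 ± 0.12) and Ltbp1 (-0.12 ± 0.07) were not called and overlapped their controls. With library totals as the only scaling, 9 genes were called higher with lamin C, all but Ltbp1. With lamin A, the 9 genes stood at log2 fold changes from 0.30 (Ltbp4) to 4.90 (Ltbp2), and Ltbp1 was lower (-0.29 ± 0.07, edgeR adjusted p = 0.00163), a call lost with library totals as the only scaling (-0.05, adjusted p = 0.567).

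The 2 lamins were compared by the difference of their effects, each taken within its batch. The fall from the shRNA level was larger with lamin C than with lamin A for 7 genes, by -2.39 ± 0.35 on the log2 scale for Ltbp2 (edgeR adjusted p = 1.25e-04), -0.98 ± 0.16 for Tgfb3 (edgeR adjusted p = 3.58e-04) and -0.73 ± 0.12 for Tgfbr1 (edgeR adjusted p = 2.88e-04). Over all genes this difference was called for 18.7% (8.84% higher and 9.9% lower). Ltbp1 differed in the other direction (0.34 ± 0.09, edgeR adjusted p = 0.0165). For Ltbp4 the difference was -0.02 ± 0.10 (95% interval -0.25 to 0.21), and for Smad7 it was -0.46 ± 0.16 (95% interval -0.82 to -0.11, edgeR adjusted p = 0.0554, and 0.0425 by DESeq2), neither called by edgeR. The distance left from control was smaller with lamin C for 7 genes, the 3 ligands, both receptors, Ltbp2 and Ltbp3, where 14.6% of all genes were called (7.29% higher and 7.35% lower). Those calls, 1303 higher and 1313 lower, went to 860 and 853 without the third control of both batches. Lmna CPM itself was higher in the lamin C libraries than in the lamin A libraries (1252 against 531), and the part of that in these differences was not tested. The controls of the batches differed for none of the 10 genes by edgeR or DESeq2, and for 0.106% of all genes by edgeR (0.0615% higher and 0.0448% lower). That count of 11 higher and 8 lower rested on single libraries. It was 394 and 435 without the third control of batch LC, 307 and 333 without the third control of both batches, 0 without any 1 of the other 5 controls, and 105 and 89 by DESeq2. None of the 10 genes was called in any of these. In the deposited column names, the third controls of both batches carry consecutive numbers, apart from those of the other controls. Whether this numbering bears on these counts was not tested.

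The other genes of the pathway were read from lists fixed with earlier results of these data known. Their counts stand beside the shares of all genes called: 33.3% higher and 29.6% lower with shRNA in batch LC, 32.4% and 29% in batch LA, 25.7% and 28.4% with lamin C against shRNA, and 16.1% and 13.7% with lamin A against shRNA. Among 10 matrix genes that hold latent complexes, 10 rose with shRNA in each batch (median log2 fold change 2.55 in batch LC and 2.22 in batch LA), and 10 fell with lamin C and 8 with lamin A. Examples are Mfap5 and Mfap4, proteins of microfibrils, with 3.58 ± 0.15 and 3.65 ± 0.20 in batch LC, Fn1 (fibronectin) with 3.14 ± 0.18 and the elastic fibre gene Fbln5 with 1.95 ± 0.09. Of 20 genes known to respond to TGF-beta, 19 rose with shRNA in each batch (medians 3.27 and 2.70), among them Postn (5.49 ± 0.24 in batch LC), Lox (5.36 ± 0.25) and Col1a2 (3.08 ± 0.16), which encode periostin, lysyl oxidase and a collagen I chain. Id1, a target of the related BMP signal, was the exception, at -0.21 ± 0.18 in batch LC and lower in batch LA (-0.49 ± 0.19, edgeR adjusted p = 0.0286). With lamin C, 18 response genes fell and Id1 rose, and with lamin A 12 fell.

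Of 15 genes that free latent TGF-beta, 11 rose with shRNA in batch LC and 12 in batch LA. Thbs1 (thrombospondin 1) had 4.33 ± 0.22 and 3.57 ± 0.21, the integrin genes Itgav and Itgb5 had 1.14 ± 0.06 and 1.39 ± 0.09 in batch LC, and the protease gene Mmp2 had 2.13 ± 0.12. Itgb6, the epithelial partner of the integrin alpha v chain, went the other way, from 19.8 ± 2.72 to 3.67 ± 1.8 CPM in batch LC (-2.43 ± 0.28) and from 22.2 ± 1.44 to 5.34 ± 2.26 CPM in batch LA (-2.05 ± 0.26), and it rose with lamin C (2.02 ± 0.28) and lamin A (1.85 ± 0.26). With lamin C 10 of the 15 fell and with lamin A 4 fell, or 8 with library totals as the only scaling and 8 when the compared groups were fitted alone. Lrrc32, which tethers latent TGF-beta to cell surfaces, rose with lamin A (0.59 ± 0.14, edgeR adjusted p = 0.00277).

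The receptors and Smad genes around the core moved less and in both directions. Of 6 co-receptors and other receptors, 4 rose and 2 fell in batch LC, and 4 rose and 1 fell in batch LA (medians 0.22 and 0.28). All 6 were called in batch LC and 5 in batch LA, where 62.9% and 61.4% of all genes were. With library totals 4 rose in batch LC, 5 rose in batch LA and none fell. Bambi, a decoy receptor, rose (1.2 ± 0.13 and 1.41 ± 0.13), and the co-receptor gene Tgfbr3 (betaglycan) fell (-0.58 ± 0.10 and -0.43 ± 0.10), but was at 0.01 in batch LA with library totals as the only scaling. The endothelial co-receptor gene Eng was called lower in batch LC (-0.29 ± 0.07), where it was at 0.13 with library totals. Of 14 Smad genes and regulators, 8 rose in each batch, and 3 fell in batch LC and 2 in batch LA. The feedback genes Pmepa1 (1.75 ± 0.10 and 1.85 ± 0.10), Tgif1 (1.79 ± 0.12 and 1.70 ± 0.12) and Skil (1.23 ± 0.11 and 1.32 ± 0.11) rose the most, while Smad3 was at -0.28 ± 0.11 (called lower) and -0.21 ± 0.10 (not called). The fall of Zfyve9 (-0.36 ± 0.07), which brings Smads to the receptor, and of the Smad phosphatase gene Ppm1a (-0.23 ± 0.05) turned into 0.06 and 0.19 in batch LC with library totals. Under that scaling 12 of the 14 rose in each batch and none fell.

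Of 16 other ligands of the superfamily that were tested, 8 rose and 3 fell with shRNA in batch LC and 9 rose and 3 fell in batch LA. These 11 and 12 calls are a share near the 62.9% and 61.4% of all genes called, and limma on FPKM, which tested fewer genes, gave 6 higher and 1 lower in each batch. Gdf15, a stress cytokine, went from 0.572 ± 0.126 CPM in controls to 15.2 ± 2.14 CPM in batch LC and from 0.911 ± 0.222 to 16.8 ± 1.57 CPM in batch LA, and was higher still with lamin A at 38.5 ± 3.27 CPM (1.19 ± 0.16 against shRNA, edgeR adjusted p = 1.73e-05) but lower with lamin C at 9.5 ± 3.23 CPM (-0.69 ± 0.17, edgeR adjusted p = 0.00221). Inhba, which encodes the activin A chain, rose (2.84 ± 0.21 and 2.72 ± 0.19), fell with lamin C (-1.67 ± 0.18) and was at 0.18 ± 0.16 with lamin A, not called. Inha (-0.85 ± 0.14), Bmp7 (-1.29 ± 0.29) and Bmp5 (-0.71 ± 0.23) fell in batch LC, and Inha (-0.80 ± 0.13), Bmp7 (-1.54 ± 0.30) and Gdf10 (-0.95 ± 0.26) fell in batch LA. Of 11 antagonists tested, 8 rose in batch LC, 6 rose in batch LA and none fell, among them Bgn (3.09 ± 0.13 in batch LC), Fstl1 (2.90 ± 0.15) and Fstl3 (2.73 ± 0.16).

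**Figure D4:**
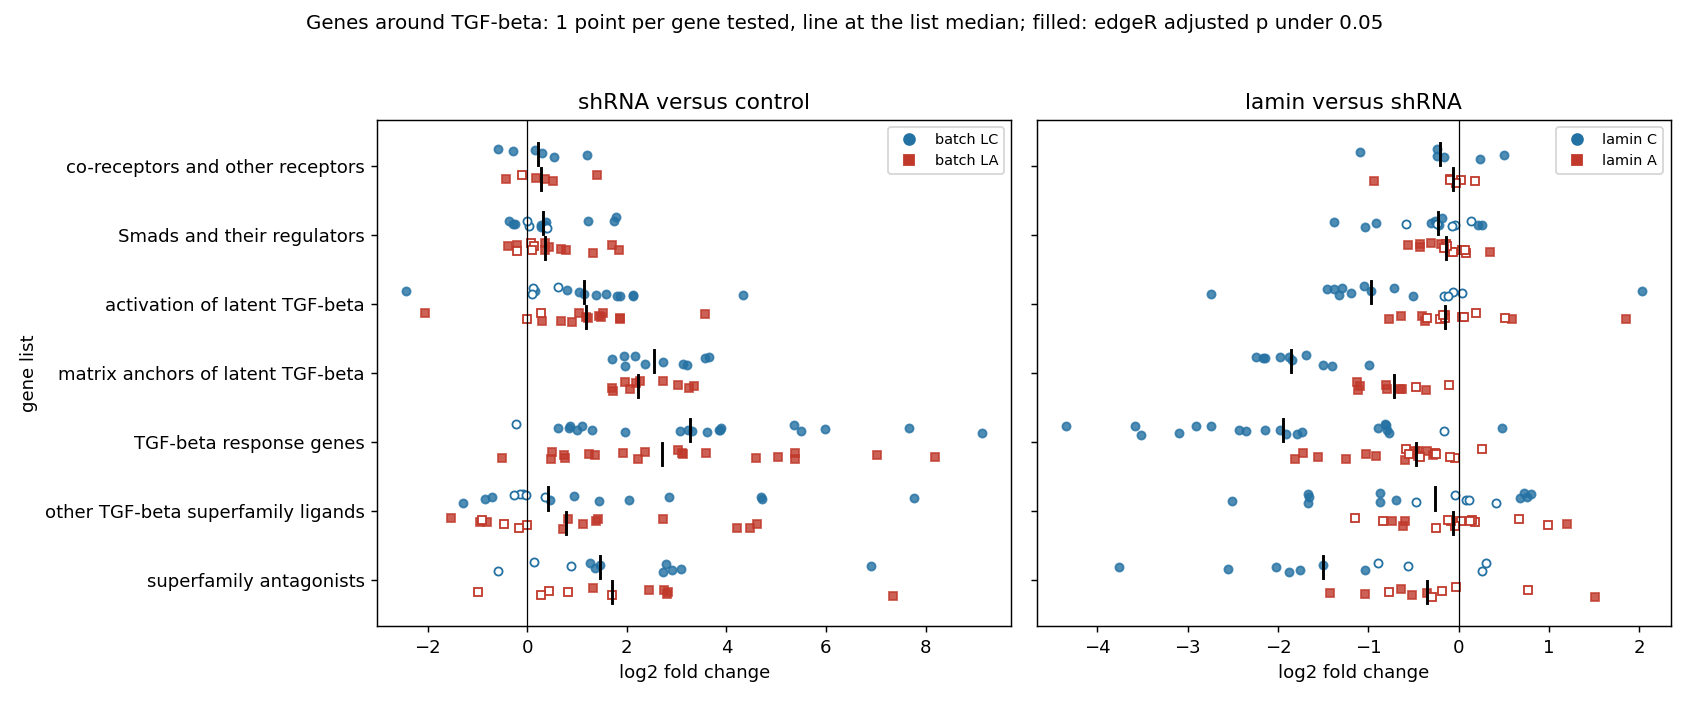
Each point is 1 tested gene of a pathway list (vertical axis) at its edgeR log2 fold change (horizontal axis), with a line at the list median and filled points for calls at an adjusted p under 0.05, for shRNA against control and for each lamin against shRNA. Response genes and matrix anchors lie far to the right with shRNA (medians 3.27 and 2.55 in batch LC), and their lamin C medians (-1.95 and -1.86) lie further left than their lamin A medians (-0.47 and -0.72).

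Markers of cell types moved in the same libraries, and in bulk tissue fewer cells of a type and less RNA per cell cannot be told apart. The 9 fibroblast markers summed to 2265 to 2691 CPM in the controls of batch LC, 4077 to 4318 CPM with shRNA and 2599 to 3175 CPM with lamin C, and to 2442 to 2697, 3865 to 4207 and 3503 to 3811 CPM with lamin A in batch LA. Of the 9, 7 rose with shRNA in each batch, 1 fell in batch LC (Scara5, -1.93 ± 0.11) and 2 fell in batch LA. The 10 macrophage markers summed to 319 to 353 CPM in controls, 1020 to 1052 CPM with shRNA and 481 to 562 CPM with lamin C, and to 316 to 342, 971 to 1006 and 800 to 904 CPM with lamin A in batch LA. All 8 cardiomyocyte markers and all 8 endothelial markers fell with shRNA in each batch with TMM scaling. With library totals as the only scaling, 5 of the cardiomyocyte markers fell in each batch and 2 rose in batch LA, and 3 endothelial markers fell in each batch and 1 rose in batch LA. The 7 T and NK cell markers summed to 0.947 to 1.66 CPM in controls and 4.18 to 7.09 CPM with shRNA, the platelet list to 12.2 to 14.9 and 18.1 to 22.0 CPM, and no mesothelial marker was called with TMM scaling (2 were higher in batch LA with library totals). Of the 8 smooth muscle and pericyte markers, 2 rose and 4 fell in batch LC, and 3 rose and 4 fell in batch LA. The rises are shares near those of all genes (33.3% and 32.4%), and 29.6% and 29% of all genes were called lower. The same shares of all genes stand beside the counts of the other markers. With library totals 4 of the smooth muscle and pericyte markers rose and 2 fell in each batch. The part of these shifts in the values of the 10 genes was not tested.

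For each gene the protein-coding genes with the most similar profile over the 18 libraries were found among 10487 candidates averaging 5 CPM or more, as the smallest root mean square difference of centred log2 CPM, given in brackets. They were Stt3a (0.0848) and Mtpn (0.0873) for Tgfb1, B4galnt1 (0.183) and Ssc5d (0.186) for Tgfb2 and Olfml3 (0.108) and Dpysl3 (0.133) for Tgfb3. For the receptors they were Tpd52 (0.0962) and Anxa4 (0.10) for Tgfbr1 and Rrp12 (0.0807) and Itga5 (0.099) for Tgfbr2, and for Smad7 Tspan5 (0.11) and Man2a1 (0.112). For the latent binders they were Zfp664 (0.0632) and Clstn1 (0.0652) for Ltbp1, Cilp (0.229) and Atp6v0a4 (0.247) for Ltbp2, Actn1 (0.0849) and P3h3 (0.0956) for Ltbp3 and Pgrmc2 (0.078) and Tulp4 (0.0787) for Ltbp4. Ltbp2 had the most distant neighbours of the 10, with Cilp, a cartilage matrix gene also counted among the response genes, first. Among the 10 genes themselves, the closest pair was Tgfb1 and Tgfbr2 at 0.133, and Tgfb2 and Tgfb3 were 0.240 apart, each over the same 18 libraries.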

How the data were processed

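Per the labels' protocols, the apex of each heart gave poly(A)-selected RNA for 1 of 18 directional libraries, which fall into 6 groups of 3. The submitters' processing notes name mm10 as the build. They list StringTie 1.3.3b, HISAT2 2.0.5, DESeq2 1.20.0 and featureCounts 1.5.0-p3 as tools and do not say what each did. The strand setting of the counting is not stated in these sources. The authors deposited whole-number counts per gene with no scaling. The authors also deposited FPKM values, whose library size, as the values show, was 1.02 to 1.03 times the TMM-scaled total. No sample column was left out, and no 2 libraries of a group agreed within counting noise.

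The main test was edgeR's (4.0.16, R 4.3.3) quasi-likelihood F test on the counts after filterByExpr and TMM scaling, in a single fit of 6 groups with 12 residual degrees of freedom. A call needed a Benjamini-Hochberg adjusted p below 0.05 over 17876 of 54532 genes. The differences of effects between batches were contrasts in the same fit. Each SE of an edgeR log2 fold change was derived from the test, as the absolute change divided by the square root of F. The 95% intervals used this SE and a t distribution with 12 degrees of freedom, whereas the p-values came from the F test itself. The script was tested on simulated data. Alternatives used DESeq2 1.42.0, limma 3.58.1 on log2(FPKM + 1) and log2(FPKM + 0.1), other scaling, no filter, the compared groups alone, replicate numbers as a block, and fits without single libraries. Family shares and ratios came from the deposited FPKM and were compared by exact permutation tests.

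The 10 genes and all lists were chosen with earlier results of these data known. From each pathway list the text names up to 4 genes with the smallest p in shRNA against control of batch LC that were called in both batches, and up to 2 that went against the majority. Id1, Smad3, Lrrc32, Scara5, Bmp5, Gdf10 and Ttll5 fall outside this rule and were named after their values were seen. Some items are not reported here.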

Additional observations from a re-analysis of the deposited data

Results flagged for a closer look

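The response to lamin differed between the lamin C and lamin A libraries for 8 of the 10 genes, by a test of the difference itself in the edgeR fit. Over all genes, this difference was called for 18.7% (8.84% higher and 9.9% lower). Relative to the shRNA libraries of the same batch, lamin C minus lamin A was -2.39 on the log2 scale for Ltbp2 (edgeR adjusted p = 1.25e-04), -0.98 for Tgfb3 (3.58e-04), -0.73 for Tgfbr1 (2.88e-04), -0.71 for Ltbp3 (1.73e-04), -0.71 for Tgfb2 (0.00926), -0.61 for Tgfbr2 (3.68e-04) and -0.36 for Tgfb1 (0.0181). Ltbp1 differed the other way, by 0.34 (0.0165).

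Relative to the controls of the same batch, lamin C minus lamin A was -2.05 for Ltbp2 (edgeR adjusted p = 0.00255), -0.91 for Tgfb3 (0.00141), -0.89 for Tgfb2 (0.00578), -0.82 for Tgfbr2 (6.51e-05), -0.62 for Ltbp3 (0.00102), -0.45 for Tgfb1 (0.00826) and -0.44 for Tgfbr1 (0.0196). Over all genes, the difference relative to control was called for 14.6% (7.29% higher and 7.35% lower). Both sets of differences share the lamin libraries and are not independent of each other. Lamin and batch cannot be told apart, and Lmna stood at 1252 CPM with lamin C against 531 CPM with lamin A, whose part in these differences was not tested.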

How the results depend on the processing

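Of 175 recomputed counts of called genes among the 10, 174 stayed within 1.5 times the reported count, and 1 did not: with library totals as the only scaling, 9 genes in place of 5 were called higher with lamin C against control. A large count out of 10 can hardly pass that limit, so these counts say little about single genes. Sorted gene by gene, 1702 recomputed results were the same, 29 stronger, 16 weaker and 3 reversed. The 3 reversed were all of Ltbp1. Among the stronger, 12 were of Smad7, 7 of Ltbp1 and 6 of Tgfbr2. Among the weaker, 7 were of Tgfbr1 and 5 of Ltbp1. That scaling moved the median log2 fold change of all genes from 0.05 to 0.47 and 0.48 with shRNA (batches LC and LA), from -0.04 to -0.36 with lamin C against shRNA and from -0.003 to -0.21 with lamin A against shRNA, and the share of calls that were higher with shRNA from 52.9% to 81.2% and from 52.7% to 82.4%. It reversed Ltbp1 (0.11 and 0.29 with shRNA, -0.11 with lamin C against shRNA), Eng (0.133 and 0.333, -0.0752), Zfyve9 (0.0611 and 0.0634, -0.0582), Ppm1a (0.19 and 0.23, -0.10, and -0.13 with lamin A against shRNA and 0.0947 against control) and Tgfbr3 in batch LA (0.0127).

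Ltbp1 was called lower with shRNA in batch LA under DESeq2 (-0.16, adjusted p = 0.0458) and when mitochondrially encoded genes were removed (-0.17, adjusted p = 0.0288). The larger fall of Tgfb1 with lamin C than with lamin A was not called without the second lamin C library (-0.31, adjusted p = 0.0604), and the difference of Ltbp1, which has the opposite direction, was not called without the first shRNA library of batch LC (0.28, adjusted p = 0.0518). The smaller distance of Tgfbr1 from control with lamin C was lost without control 3 (adjusted p = 0.0546) or lamin C library 3 (0.056) of batch LC, and without control 2 (0.0584) or lamin A library 1 (0.0575) of batch LA. The replicate numbers showed no clear pairing of the libraries. Of 18 same-numbered pairs, 1 correlated over 0.1 (range -0.123 to 0.149), and 5 of 18 libraries correlated best with their own number. Pairs with different numbers reached 0.187. With 3 libraries a group, this check could miss a weak pairing. With the replicate block the shRNA calls of batch LC were 5843 higher and 5222 lower over all genes against 5948 and 5299, with no call among the 10 genes changed. The cause of these changes was not tested. With 31418657 or more counts a library, none of the 10 genes was near the limit of 3 counts.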
